A study of Mus musculus with 10 samples.

Results

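The genes described here mark dendritic cells, the leukocytes that take up antigen, carry it to lymph nodes and present it to T cells. They were chosen by symbol: 10 genes were listed, and every probe set annotated to exactly 1 of those symbols was taken, whatever its value. This gave 15 probe sets for 9 genes, out of 34945 single-gene probe sets for 18193 genes. No probe set carried the symbol Clec9a alone, so that gene, a receptor for dead cells on cDC1, was not analysed here. Of the 9 measured genes, Batf3, Xcr1, Naaa and Wdfy4 stand for the first type of conventional dendritic cell (cDC1). Cd209a stands for the second type (cDC2), Siglech for plasmacytoid dendritic cells, and Flt3, Zbtb46 and Itgax for dendritic cells in general.

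RNA of whole B16 tumors, a transplantable mouse melanoma on the C57BL/6 background, was read on Affymetrix mouse expression arrays, which hold sets of short probes near the 3′ end of transcripts. Bach2-deficient tumors (5) were set against wild-type tumors (5). Bach2 encodes a transcriptional repressor of lymphocytes. The submitters' text speaks of Bach2-deficient mice, while the sample labels attach the genotype to the tumor. The labels give no allele, no age and no sex, and leave unsaid whether each tumor had its own host. All tumors were dissociated mechanically and no cells were sorted, so RNA of melanoma cells, dendritic cells, lymphocytes and stroma is mixed in each value, and more cells of a type cannot be told apart from more RNA per cell. The comparison asks how the dendritic cell genes of the tumor differ between the genotypes, and whether those of cDC1 differ from the rest.

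Conventional dendritic cells arise from bone marrow precursors that carry FLT3, a receptor tyrosine kinase. BATF3 and IRF8 are transcription factors required for cDC1, the subset known for presenting the antigens of dead tumor cells to CD8+ T cells. XCR1 is the cDC1 receptor for XCL1, a chemokine made by NK cells and activated CD8+ T cells, and WDFY4 is needed for cross-presentation. cDC2 depend in part on IRF4, and plasmacytoid dendritic cells on TCF4. None of the genes is exclusive to its subset: Itgax (integrin CD11c) is also made by macrophages, NK cells and activated CD8+ T cells, Batf3 by activated T cells, Naaa by macrophages, Zbtb46 by endothelium and Flt3 by blood progenitors.

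The arrays differed by genotype in other respects. Bach2, read by its brightest probe set, lay between 4.96 and 6.37 on the Bach2-deficient arrays and between 5.93 and 7.78 on the wild-type arrays (log2). Its change of -1.07 (SE 0.38, limma adjusted p = 0.0551) did not pass, and passed in 4 of 19 alternatives, among them the fit without wild-type replicate 2 (-1.33, limma adjusted p = 0.0195). Of its other 2 probe sets, both dimmer, 1 fell (-1.05, limma adjusted p = 0.033 over all probe sets) and 1 did not pass (-0.35). A probe set outside the deleted part, which the labels do not name, checks nothing. The poly-A controls, RNAs added before labelling, averaged 9.21 to 9.43 on Bach2-deficient arrays and 11.0 to 11.4 on wild-type arrays. Xist, transcribed in females, was low on 4 Bach2-deficient arrays and high on Bach2-deficient replicate 2 (11.9) and on all wild-type arrays (11.4 to 12.2). The melanocyte list averaged 11.4 to 12.1 on Bach2-deficient arrays and 11.9 to 12.2 on wild-type arrays. The part of these differences in the results below was not tested beyond the fits named, and a technical difference cannot be told apart from genotype.

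Most of the dendritic cell genes measured were higher in Bach2-deficient tumors. Of the 9 measured genes, 7 rose and 0 fell (limma, adjusted p under 0.05 over 18193 genes), where 16.3% of all genes rose and 12.4% fell. All 4 cDC1 genes measured rose (Batf3, Xcr1, Naaa and Wdfy4), as did Cd209a and Siglech, which stand alone for cDC2 and plasmacytoid dendritic cells. Of the 3 genes of dendritic cells in general, Itgax rose, and Flt3 and Zbtb46 did not pass. The median change over the 9 genes was 1.33 on the log2 scale, against -0.06 over all genes. The groups did not overlap for 6 of the 9 genes, as for 18.9% of all genes.

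**Figure D1:**
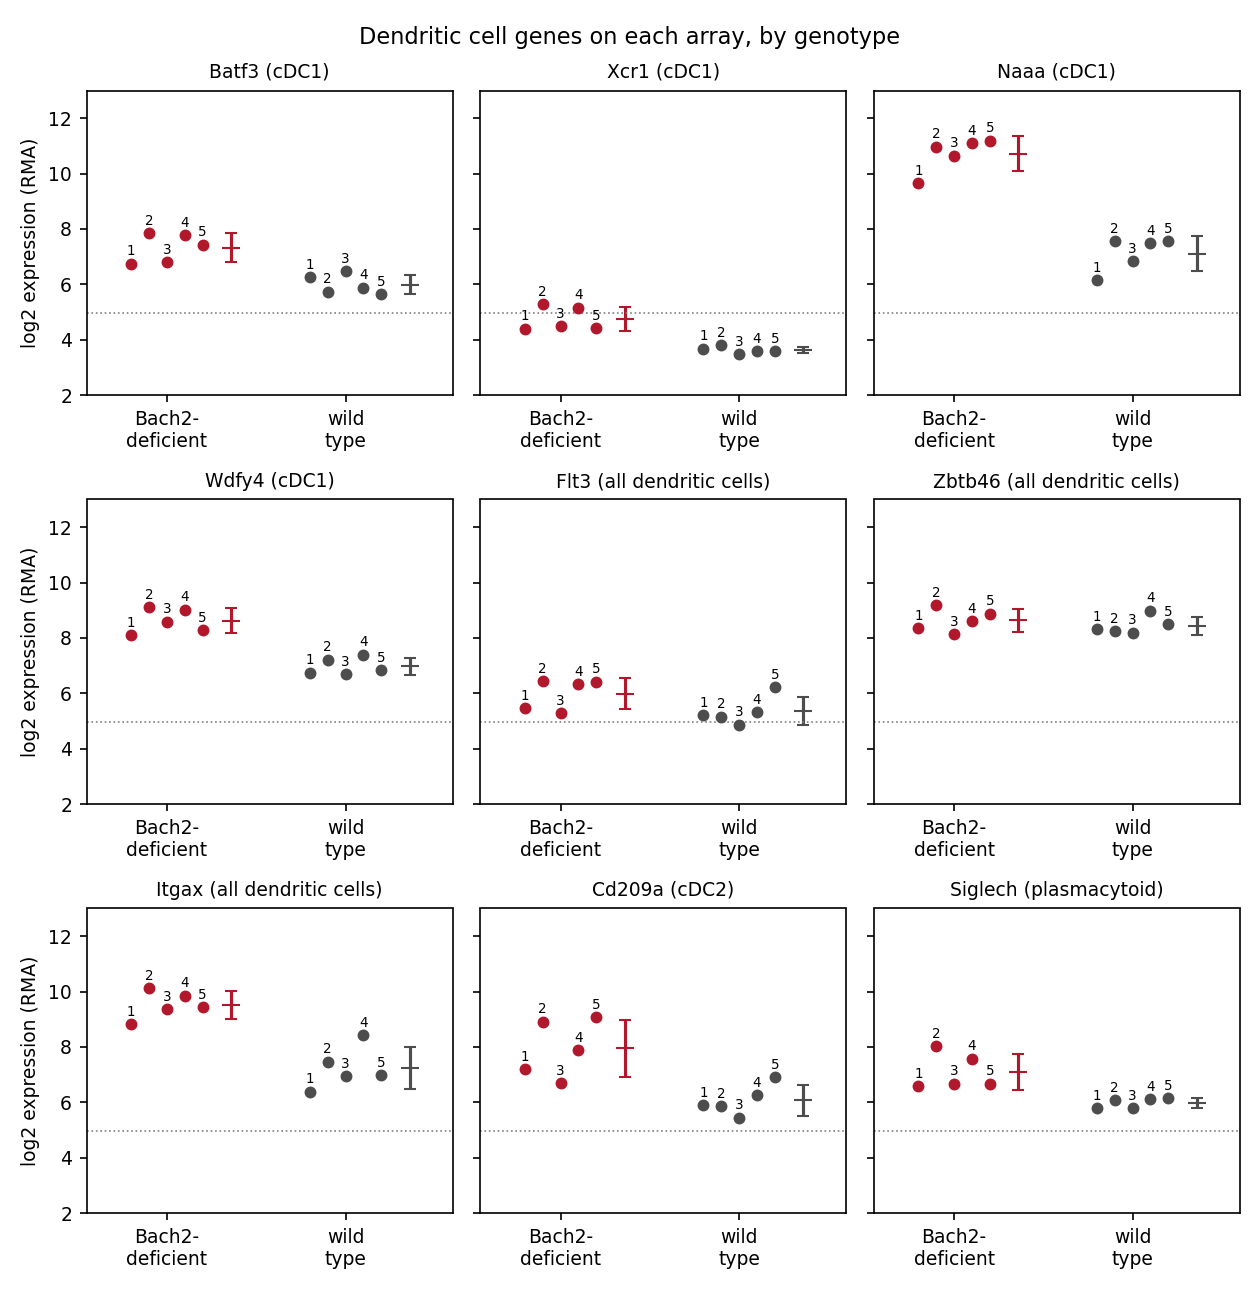
Log2 expression of the 9 measured dendritic cell genes (1 panel each, vertical axis) on every array, Bach2-deficient in red and wild type in gray; numbers are replicates, and bars give the mean and SD of 5 arrays. The dotted line at 4.98 bounds the dimmest 30% of genes. Bach2-deficient replicates 1 and 3 were the lower ones for most genes, and Xcr1 lay near or under the line on all arrays.

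Batf3, the basic leucine zipper factor required for cDC1, read 6.74, 7.86, 6.81, 7.78 and 7.44 in Bach2-deficient tumors (replicates 1 to 5) and 6.26, 5.73, 6.47, 5.88 and 5.64 in wild-type tumors (log2). The lowest Bach2-deficient tumor lay above the highest wild-type tumor. Means were 7.33 ± 0.53 and 5.99 ± 0.36 (SD, n = 5 each), a 2.52-fold rise (log2 1.33, SE 0.26, limma adjusted p = 0.00414). Activated T cells also transcribe Batf3, and T cell genes rose on the same arrays. Their part in this rise was not tested.

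Xcr1, the chemokine receptor most restricted to cDC1 among these genes, read 4.40, 5.28, 4.49, 5.16 and 4.41 in Bach2-deficient tumors and 3.68, 3.80, 3.48, 3.58 and 3.60 in wild-type tumors. All Bach2-deficient tumors were higher, and the wild-type tumors were nearly level. The change was 1.12 (SE 0.19, limma adjusted p = 0.00206). Both means, 4.75 ± 0.43 and 3.63 ± 0.12, lay under 4.98, below which the dimmest 30% of genes are found. The arrays carry no detection calls, so the wild-type level is not shown to be above background, and no fold is given.

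Naaa encodes a lysosomal acid amidase that cleaves N-acylethanolamines and is abundant in cDC1. Its brightest probe set read 9.66, 11.0, 10.6, 11.1 and 11.2 in Bach2-deficient tumors and 6.15, 7.55, 6.85, 7.48 and 7.55 in wild-type tumors. The groups lay far apart, with means of 10.7 ± 0.63 and 7.11 ± 0.62. The 12.1-fold rise (log2 3.60, SE 0.35, limma adjusted p = 0.000205) was that of this probe set. Averaged over its 3 probe sets the change was 2.56 and passed (limma adjusted p = 0.00043).

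Wdfy4, a large BEACH-domain protein of antigen processing, read 8.09, 9.12, 8.59, 9.03 and 8.28 in Bach2-deficient tumors and 6.75, 7.22, 6.70, 7.40 and 6.83 in wild-type tumors. There was no overlap. The rise was 3.12-fold (log2 1.64, SE 0.23, limma adjusted p = 0.0008). Averaged over its 2 probe sets it was smaller, 0.92 on the log2 scale, and still passed (limma adjusted p = 0.00107).

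The genes of dendritic cells in general did not move alike. Itgax read 8.82, 10.1, 9.37, 9.85 and 9.43 in Bach2-deficient tumors and 6.39, 7.47, 6.95, 8.42 and 6.99 in wild-type tumors. All Bach2-deficient tumors were higher, although wild-type replicate 4 came within reach of Bach2-deficient replicate 1. The rise was 4.84-fold (log2 2.27, SE 0.36, limma adjusted p = 0.0016).

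Flt3 read 5.47, 6.43, 5.28, 6.32 and 6.42 in Bach2-deficient tumors and 5.21, 5.16, 4.87, 5.31 and 6.22 in wild-type tumors. The groups overlapped, with wild-type replicate 5 above 2 and wild-type replicate 4 above 1 of the Bach2-deficient tumors. The change of 0.63 (SE 0.31, 95% interval -0.05 to 1.31) did not pass (limma adjusted p = 0.146). Leaving out wild-type replicate 5 made it 0.85, which passed (limma adjusted p = 0.0428). Its ligand gene Flt3l was not analysed here.

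Zbtb46, a zinc finger factor of conventional dendritic cells and their committed precursors, read 8.35, 9.18, 8.15, 8.61 and 8.88 in Bach2-deficient tumors and 8.32, 8.24, 8.20, 8.98 and 8.50 in wild-type tumors. The groups lay on top of each other. The change was 0.19 (SE 0.22, 95% interval -0.29 to 0.67, limma adjusted p = 0.542), so a rise as large as that of Batf3 lay outside the interval for this probe set. Endothelium also transcribes Zbtb46. Of 10 endothelial genes on the same arrays 4 fell and 1 rose, where 12.4% of all genes fell and 16.3% rose.

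Cd209a, a C-type lectin of cDC2 and monocyte-derived dendritic cells, was the most variable of the 9 genes in Bach2-deficient tumors. It read 7.20, 8.91, 6.70, 7.88 and 9.07 there and 5.89, 5.86, 5.45, 6.27 and 6.92 in wild-type tumors. Bach2-deficient replicate 3 lay below wild-type replicate 5. The rise was 3.68-fold (log2 1.88, SE 0.47, limma adjusted p = 0.0135). When tumors of high and low Xist were fitted with levels of their own, so that the change rests on Bach2-deficient replicate 2, it was 2.84 and did not pass (limma adjusted p = 0.0524).

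Siglech, a sialic acid-binding lectin of plasmacytoid dendritic cells, read 6.59, 8.03, 6.68, 7.58 and 6.68 in Bach2-deficient tumors and 5.78, 6.09, 5.79, 6.12 and 6.16 in wild-type tumors. Replicates 2 and 4 stood above the other Bach2-deficient tumors, and no value overlapped. The rise was 2.18-fold (log2 1.12, SE 0.28, limma adjusted p = 0.0127). With Xist so fitted the value was 2.04. It rests on Bach2-deficient replicate 2, the highest Bach2-deficient tumor for this gene.

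When the melanocyte list mean, lower in Bach2-deficient tumors, was added to the model, only Naaa of the 9 genes passed (3.02, limma adjusted p = 0.0236). The changes there were 0.65 for Batf3, 0.63 for Xcr1, 1.16 for Wdfy4, 1.83 for Itgax, 1.56 for Cd209a and 0.47 for Siglech, all positive, with limma adjusted p from 0.0702 to 0.452. Whether a lower share of melanoma RNA takes part in the rises was not tested further.

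**Figure D2:**
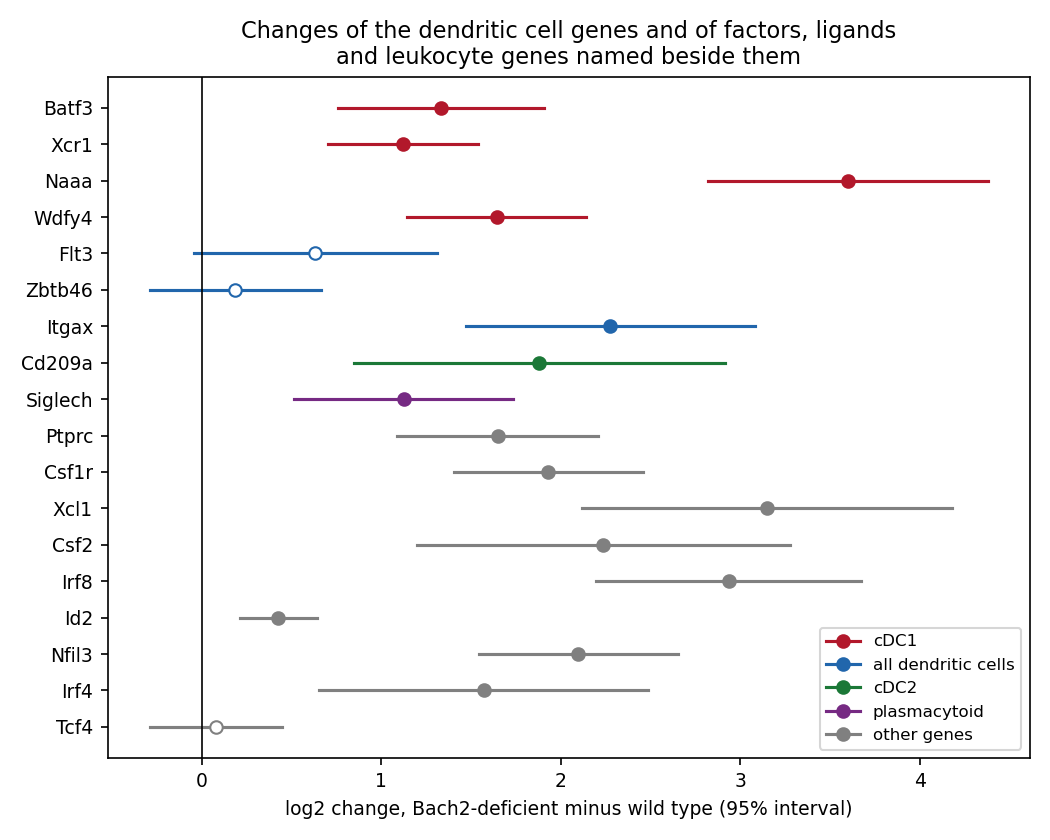
Log2 change, Bach2-deficient minus wild type (horizontal axis), with the 95% interval of the limma fit, for the 9 dendritic cell genes by subset and for leukocyte, ligand and lineage factor genes in gray. Filled points passed at an adjusted p under 0.05, open points did not; Naaa, by its brightest probe set, stood at 3.60, and the intervals of Flt3, Zbtb46 and Tcf4 crossed 0.

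Probe sets of 1 gene did not always agree. In the fit over all single-gene probe sets, 9 of the 15 rose and 0 fell, where 14.1% of all single-gene probe sets rose. All 3 Naaa probe sets rose, by 3.60, 2.08 and 1.99, so the size of the rise depended on the probe set. The dimmest of the 3 read 5.75 in wild-type replicate 4 and 3.41 to 3.83 in the other wild-type tumors, which made its groups overlap. Of the 2 Wdfy4 probe sets, the brighter rose and the dimmer, which read 4.76 to 5.31 in Bach2-deficient tumors and 4.54 to 5.14 in wild-type tumors, did not pass (0.20, limma adjusted p = 0.335). None of the 4 Zbtb46 probe sets passed. Their changes were 0.76, 0.19, 0.04 and -0.09, the last in a probe set that read 2.99 to 3.15 in Bach2-deficient tumors and 2.81 to 3.32 in wild-type tumors. The change of 0.19 belongs to the brightest of them, which stands for the gene elsewhere. The probe set with the change of 0.76 had a 95% interval of -0.02 to 1.54, which holds the 1.33 of Batf3.

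**Figure D3:**
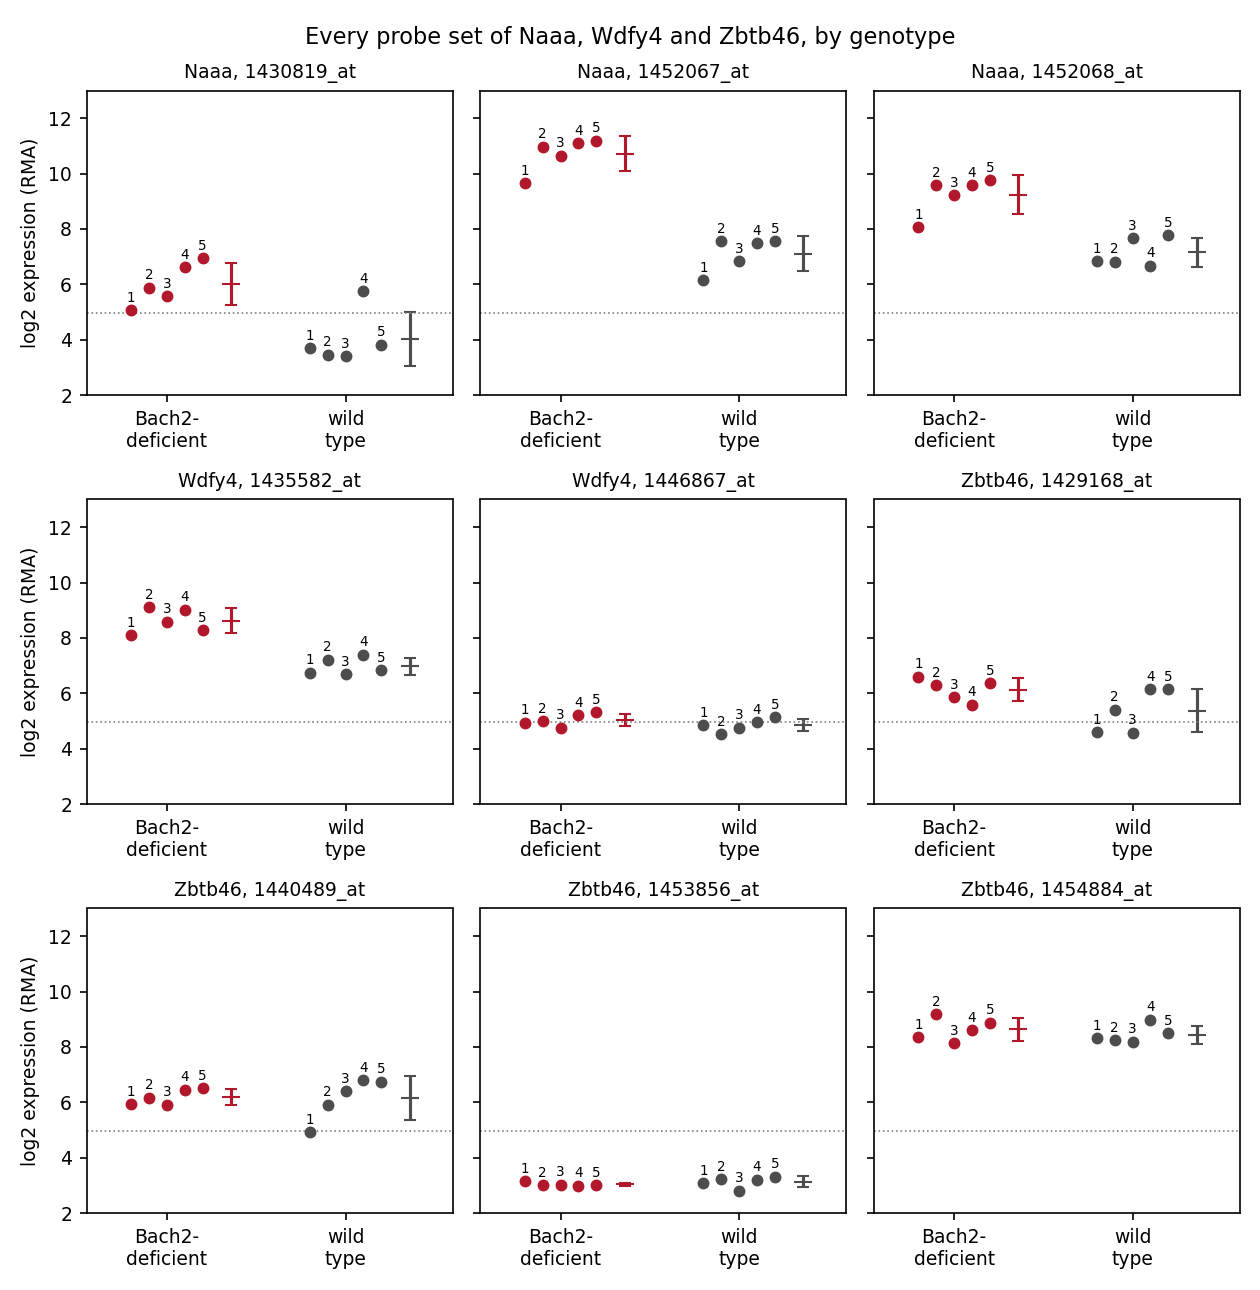
Log2 expression (vertical axis) of each probe set of Naaa, Wdfy4 and Zbtb46 on every array, Bach2-deficient in red and wild type in gray, with replicate numbers and the mean and SD of 5 arrays; the dotted line is at 4.98. The 3 Naaa probe sets were all higher in Bach2-deficient tumors, and the 4 Zbtb46 probe sets overlapped between the groups.

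The cDC1 genes were next set against the other dendritic cell genes. Within each array 1 log2 value was subtracted from another, which removes any overall shift of the array, and the difference was compared between the genotypes with an exact 2-sided permutation test. With 5 arrays a group the smallest p is 0.00794, and p-values were adjusted over 38 pairs. The median change was 1.49 for the 4 cDC1 genes and 1.12 for the other 5. Of the 20 pairs of a cDC1 gene and another dendritic cell gene, 8 differed, all with the larger change in the cDC1 gene. These 8 pairs contained Naaa or Zbtb46 in each case.

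Naaa changed more than each of the other 5 genes, by 3.41 against Zbtb46, 2.97 against Flt3, 2.48 against Siglech, 1.72 against Cd209a and 1.33 against Itgax (exact permutation, adjusted p = 0.0232 for each). With genes taken as the mean of their probe sets, the last 2 were 0.68 and 0.28 and did not pass (adjusted p = 0.197 and 0.457). Batf3, Wdfy4 and Xcr1 changed more than Zbtb46, by 1.15, 1.46 and 0.93 (exact permutation, adjusted p = 0.0232, 0.0232 and 0.0402). The Batf3 and Xcr1 differences did not pass with mean probe sets (1.11 and 0.90, adjusted p = 0.0887 and 0.0565). The difference of Xcr1 also failed without Bach2-deficient replicate 4 (0.83, adjusted p = 0.0603) and without wild-type replicate 1 (0.98, 0.0646), 3 (0.96, 0.0532) or 5 (0.91, 0.0565).

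Against Flt3, Cd209a, Siglech and Itgax, the 3 cDC1 genes Batf3, Xcr1 and Wdfy4 showed no difference that passed. The values ran from -1.15 for Xcr1 minus Itgax to 1.01 for Wdfy4 minus Flt3 (exact permutation, adjusted p = 0.0503 for both). Wdfy4 minus Siglech was 0.52 (exact permutation, adjusted p = 0.0503). For Xcr1, whose wild-type level was dim, the difference of changes has no exact size. A p that misses the threshold does not show that the changes were the same.

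The changes were also set against 2 broad leukocyte genes, Ptprc, which encodes CD45 of all leukocytes, and Csf1r, the growth factor receptor of macrophages and monocytes. Ptprc rose by 1.65 (SE 0.25, limma adjusted p = 0.00131) and Csf1r by 1.93 (SE 0.24, limma adjusted p = 0.000483). Both calls were lost with the melanocyte mean in the model (limma adjusted p = 0.0958 and 0.0502). Naaa changed more than Ptprc by 1.95 and more than Csf1r by 1.67 (exact permutation, adjusted p = 0.0232 for both). With mean probe sets those values were 0.79 and 0.40 and did not pass (adjusted p = 0.101 and 0.121).

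Flt3 and Zbtb46 changed less than both leukocyte genes. Flt3 differed from Ptprc by -1.02 and from Csf1r by -1.30, and Zbtb46 by -1.46 and -1.74 (exact permutation, adjusted p = 0.0232 for each, groups apart). The Flt3 and Ptprc pair did not pass without Bach2-deficient replicate 3 (-0.82, adjusted p = 0.0804). Xcr1 minus Csf1r was -0.81 (adjusted p = 0.0402) and failed in 8 of 13 alternatives. It failed without Bach2-deficient replicate 1 (-0.87), 3 (-0.68), 4 (-0.88) or 5 (-0.72). The same held without wild-type replicate 1 (-0.66) or 2 (-0.65) and after repeated quantile normalization (-0.66). The remaining alternative, tumors paired by number, could not let any pair of genes pass, so it is no mark against this pair. Batf3, Wdfy4, Itgax, Cd209a and Siglech differed from neither leukocyte gene by a difference that passed, with values from -0.81 to 0.63. On these arrays, then, the rises of those 5 genes were not shown to differ from that of CD45 or of the macrophage gene.

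**Figure D4:**
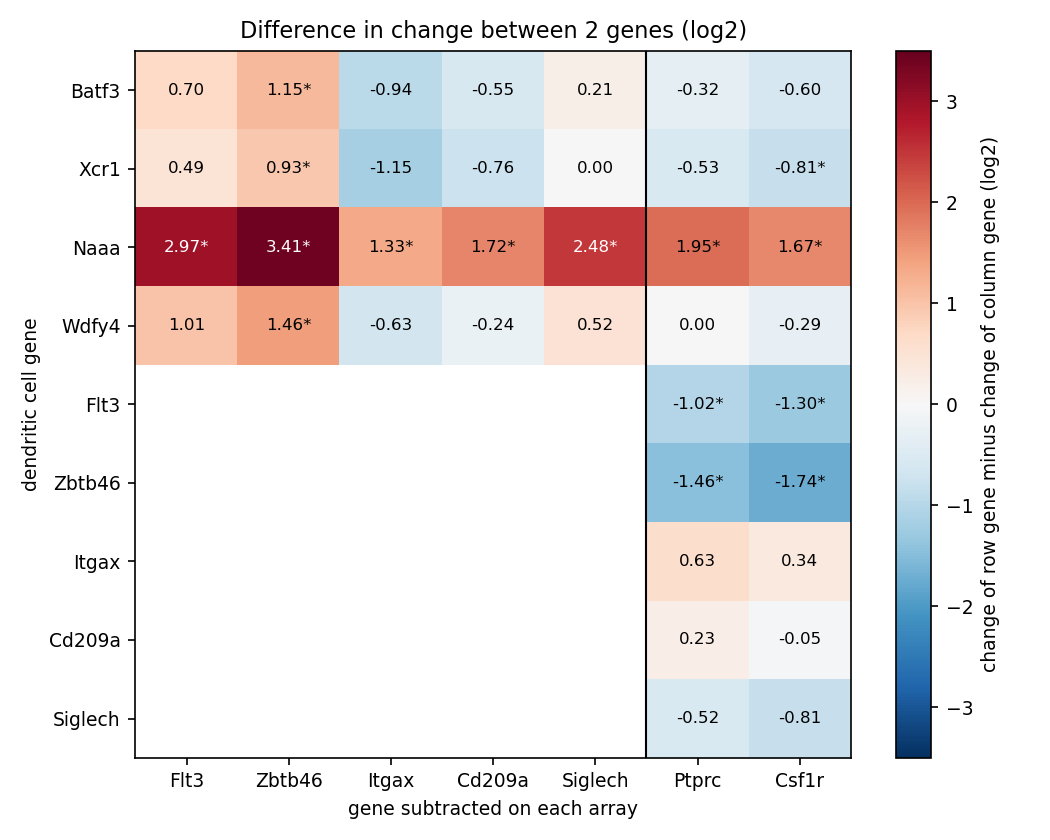
Difference between the log2 change of the row gene and that of the column gene, Bach2-deficient minus wild type, from per-array differences; red means that the row gene changed more, and an asterisk marks an adjusted p under 0.05 in the exact permutation test over 38 pairs. The Naaa row is positive throughout (1.33 to 3.41), and Flt3 and Zbtb46 are negative against Ptprc and Csf1r (-1.02 to -1.74).

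The tumors of a group did not carry equal amounts of these RNAs. Among Bach2-deficient tumors, replicate 1 was lowest for 6 of the 9 genes and replicate 3 for Flt3, Zbtb46 and Cd209a. Replicate 2 was highest for 7, and replicate 5 for Naaa and Cd209a. The mean deviation over the 9 genes ran from -0.59 in replicate 1 to 0.59 in replicate 2. Ptprc was also lowest in replicate 1 (11.7, with 12.3 to 12.5 in the others). Replicate 2 was the Bach2-deficient tumor with high Xist, and without it all 7 calls remained. That fit cannot separate Xist from genotype, since every Bach2-deficient tumor left in it was low in Xist and every wild-type tumor high. Wild-type replicates 1 and 3 were lowest for 3 and 5 of the genes.

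By the rule used for likeness, the genes whose deviations from the genotype means were closest to those of Xcr1 over the 10 arrays were Extl3, Hvcn1 and Gm2629. Their root mean square distances were 0.15 each on the log2 scale, where the deviations of Xcr1 itself had a root mean square of 0.28. None of the 3 passed the test of genotype (changes -0.15, 0.32 and 0.53), so the likeness is one of scatter within groups and not of a called change. They were the closest of 10801 genes searched, and whether a search of that size finds such closeness by chance was not tested.

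Promoter sequence was examined for the same genes, because 7 of the 9 rose together. RefSeq promoter windows (GRCm38.p6, 250 bases before to 50 after the start) were found for all 10 listed genes. They were searched on both strands for TGANTCA, the core bound by AP-1, BATF and BACH factors, for the core of the interferon-stimulated response element, and for GAGGAAG, a core bound by PU.1. TGANTCA was found in 2 of the 10, Itgax and Zbtb46, and in 7.81% of all 32851 promoter windows. GAGGAAG was found in Batf3 and in 13.6% of all windows, and the interferon core in 0 of the 10 and 3.44% of all. No window among the 10 held more than 1 match, so no matches overlapped. The windows with a match are shown with that of Xcr1, which had none and marks cDC1 most narrowly; they are printed 5′ to 3′ along the gene, with matches in capitals.
Itgax (chr7:128129300-128129599, plus strand): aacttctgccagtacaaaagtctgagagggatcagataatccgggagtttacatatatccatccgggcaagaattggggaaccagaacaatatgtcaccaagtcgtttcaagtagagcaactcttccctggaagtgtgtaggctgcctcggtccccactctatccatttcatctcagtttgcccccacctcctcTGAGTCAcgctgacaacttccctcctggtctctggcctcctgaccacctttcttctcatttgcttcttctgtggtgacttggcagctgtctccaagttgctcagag
Zbtb46 (chr2:181424339-181424638, minus strand): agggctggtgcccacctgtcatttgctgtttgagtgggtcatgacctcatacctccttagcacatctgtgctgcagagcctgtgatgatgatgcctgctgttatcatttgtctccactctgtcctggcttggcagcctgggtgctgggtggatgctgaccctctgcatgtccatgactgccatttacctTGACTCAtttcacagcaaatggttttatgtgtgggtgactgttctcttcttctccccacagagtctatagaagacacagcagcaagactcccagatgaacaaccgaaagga
Batf3 (chr1:191098164-191098463, plus strand): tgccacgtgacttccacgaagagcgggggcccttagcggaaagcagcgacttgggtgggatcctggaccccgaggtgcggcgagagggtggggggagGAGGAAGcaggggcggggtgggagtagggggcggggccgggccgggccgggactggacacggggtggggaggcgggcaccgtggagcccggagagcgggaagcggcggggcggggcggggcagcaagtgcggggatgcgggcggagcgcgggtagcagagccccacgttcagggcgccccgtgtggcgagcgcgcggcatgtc
Xcr1 (chr9:123861980-123862279, minus strand): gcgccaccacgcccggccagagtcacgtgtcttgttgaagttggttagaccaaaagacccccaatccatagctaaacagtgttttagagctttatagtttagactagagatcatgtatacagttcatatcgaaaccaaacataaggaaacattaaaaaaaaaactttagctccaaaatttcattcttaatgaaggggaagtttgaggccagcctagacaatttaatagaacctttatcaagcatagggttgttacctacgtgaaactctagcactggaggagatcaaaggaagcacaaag
The match begins at position -56 from the start in Itgax, at -61 in Zbtb46 and at -153 in Batf3. Itgax rose by 2.27 and Zbtb46 changed by 0.19 without passing. Whether the core takes part in either value was not tested. A match is a run of letters and not a shown binding site.

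Other genes of each dendritic cell subset were read from lists. Over all genes 16.3% rose and 12.4% fell in the fit without a covariate, the shares to set beside each count from that fit. With the melanocyte mean in the model 278 of 18193 genes rose, the number to set beside the counts given there. With Xist the changes rest on Bach2-deficient replicate 2, so neither share applies to those counts. Of 13 other cDC1 genes, 8 rose and 0 fell, with a median change of 0.89. With the melanocyte mean in the model 2 rose, and with Xist 3. Irf8, the lineage factor of cDC1, averaged 10.2 ± 0.62 in Bach2-deficient tumors and 7.25 ± 0.55 in wild-type tumors, and rose 7.66-fold (log2 2.94, SE 0.33, limma adjusted p = 0.000353). Nfil3, which acts early in cDC1 development, rose by 2.10 and Id2, an inhibitor of E proteins, by 0.43. The Id2 call was lost with the melanocyte mean (limma adjusted p = 0.296) and with Xist (0.0956). Clnk (2.22), Itgae (1.28, the integrin CD103), Ppt1 (1.24), Rab7b (1.18) and Ly75 (0.89, the uptake receptor DEC-205) rose too. Tlr3 (-0.10), Cadm1 (-0.19), Cd24a (0.55), Gcsam (0.42) and Snx22 (0.01) did not pass. The wild-type level of Clnk (3.21) was dim, so its rise has no exact size. Nfil3, Id2 and Itgae are also transcribed by T or NK cells and Irf8 by macrophages.

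Of 12 other genes of conventional dendritic cells, 6 rose and Hmgn3 fell, with a median of 1.19; 1 rose with the melanocyte mean in the model. Gpr132, a G protein-coupled receptor, rose by 2.62 (SE 0.22, limma adjusted p = 0.000125), and Kmo, a kynurenine hydroxylase, by 2.26. Hmgn3, a nucleosome-binding protein, was bright in both groups (11.6 ± 0.33 in Bach2-deficient and 12.4 ± 0.10 in wild-type tumors) and fell by 0.81, a call lost with the melanocyte mean (-0.39, limma adjusted p = 0.204). Dpp4, P2ry10, Traf1 and Adam19 rose by 2.35, 2.02, 2.17 and 1.15, and all of these are transcribed by lymphocytes as well. Bcl11a (0.56), Ap1s3 (0.62), H2-Eb2 (0.15), Rab30 (-0.43) and Btla (1.22) did not pass.

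The groups were apart for 18.9% of all genes and for 2 of 7 other cDC2 genes. Of these 7, 6 rose, with a median of 1.57. With the melanocyte mean in the model 0 of them rose, and with Xist 2. Irf4 rose by 1.57 (SE 0.41, limma adjusted p = 0.0174) with overlap, and did not pass with the melanocyte mean (0.83, limma adjusted p = 0.446) or Xist (2.26, 0.0785). Itgam, the integrin CD11b shared with macrophages and neutrophils, rose by 2.68 and did not pass with the melanocyte mean (limma adjusted p = 0.0599). Its wild-type mean of 4.72 lay under 4.98, so the size of that rise is not exact. The galactose-type lectins Mgl2 and Clec10a rose by 2.56 and 1.58, Notch2 by 0.58 and Sirpa by 0.54. Klf4 (0.16) did not pass.

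Of 11 other plasmacytoid genes, 7 rose, with a median of 0.84. With the melanocyte mean in the model 1 rose, and with Xist 3. The largest of these rises were those of Klk1 (2.70) and Irf7 (2.46, SE 0.26, limma adjusted p = 0.000283). Irf7 and Bst2 (0.60) are induced by interferon in many cell types. The chemokine receptor gene Ccr9 rose by 1.65, Lair1 by 1.96 and Cox6a2 by 0.63. Pacsin1 also rose (0.84), with a dim wild-type level (4.34), so that rise has no exact size. The lineage factors did not pass: Tcf4 changed by 0.08 (10.9 ± 0.25 in Bach2-deficient and 10.8 ± 0.29 in wild-type tumors, limma adjusted p = 0.747) and Spib by 0.53. The sign of the Tcf4 value was not stable, at -0.0021 after repeated quantile normalization. No cells were sorted, so the Tcf4 level is that of the whole tumor and not of plasmacytoid dendritic cells alone.

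Genes of mature or migrating dendritic cells rose in 12 of 15 cases and fell in 1, with a median of 1.27; 1 rose with the melanocyte mean in the model and 6 with Xist. Cd40, a costimulatory receptor, rose by 2.06 (SE 0.24, limma adjusted p = 0.000405), Pdcd1lg2, which encodes PD-L2, by 3.53 and the migration receptor gene Ccr7 by 1.20. Fscn1, the actin-bundling protein fascin, fell by 0.46 and was bright in both groups (11.7 ± 0.18 in Bach2-deficient and 12.2 ± 0.16 in wild-type tumors). Averaged over its 4 probe sets the change was -0.18 and did not pass (limma adjusted p = 0.0846), and neither did it with the melanocyte mean (-0.32) or Xist (-0.58) in the model. Ccl22 (1.02) and Socs2 (0.85) did not pass.

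Among 13 growth factors, chemoattractants and receptors, 9 rose, with a median of 1.35. With the melanocyte mean in the model 1 rose, and with Xist 3. Xcl1, the ligand of XCR1, read 9.24, 10.4, 9.64, 9.92 and 9.60 in Bach2-deficient tumors and 5.92, 8.08, 6.35, 7.30 and 5.34 in wild-type tumors. All Bach2-deficient tumors were higher and the wild-type tumors were widely spread. The rise was 8.88-fold (log2 3.15, SE 0.47, limma adjusted p = 0.00113). With the melanocyte mean it was 2.57 and did not pass (limma adjusted p = 0.0876). Csf2, which encodes GM-CSF, averaged 7.21 ± 0.42 in Bach2-deficient tumors and 4.98 ± 1.10 in wild-type tumors and rose by 2.24, with the wild-type level at the bound of the dimmest genes. That call was lost with the melanocyte mean (limma adjusted p = 0.153) and with Xist (0.1). Its receptor chains Csf2ra and Csf2rb rose by 1.35 and 1.94. Ccl5, a chemoattractant of leukocytes including dendritic cells, rose by 3.34 (SE 0.37, limma adjusted p = 0.000316), and Ccl4 by 2.26. Csf1 (0.79), Cx3cr1 (1.05), Ccr6 (-0.31) and Ccl20 (0.01) did not pass.

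Of 12 genes of antigen uptake, sensing and cross-presentation, 10 rose, with a median of 1.51; 5 rose with the melanocyte mean in the model and 6 with Xist. Tap1, which moves peptides to MHC class I, rose by 3.04 (SE 0.23, limma adjusted p = 8.84e-05). Averaged over its 4 probe sets the change was smaller, 0.85, and passed as well (limma adjusted p = 0.000268). Cxcl9, the chemokine through which cDC1 attract CXCR3-bearing T cells, rose by 5.33, Cybb, an oxidase subunit, by 2.76 and Il12b by 1.36 (wild-type mean 4.68, dim). Tlr3 and Cd70 (0.28) did not pass. Tlr3, Ly75 and Rab7b also stand in the list of other cDC1 genes. Cd40 and Il12b also stand in that of mature dendritic cells, so these counts are not separate. Tap1, Tap2, Cxcl9 and Cxcl10 respond to interferon in many cell types.

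**Figure D5:**
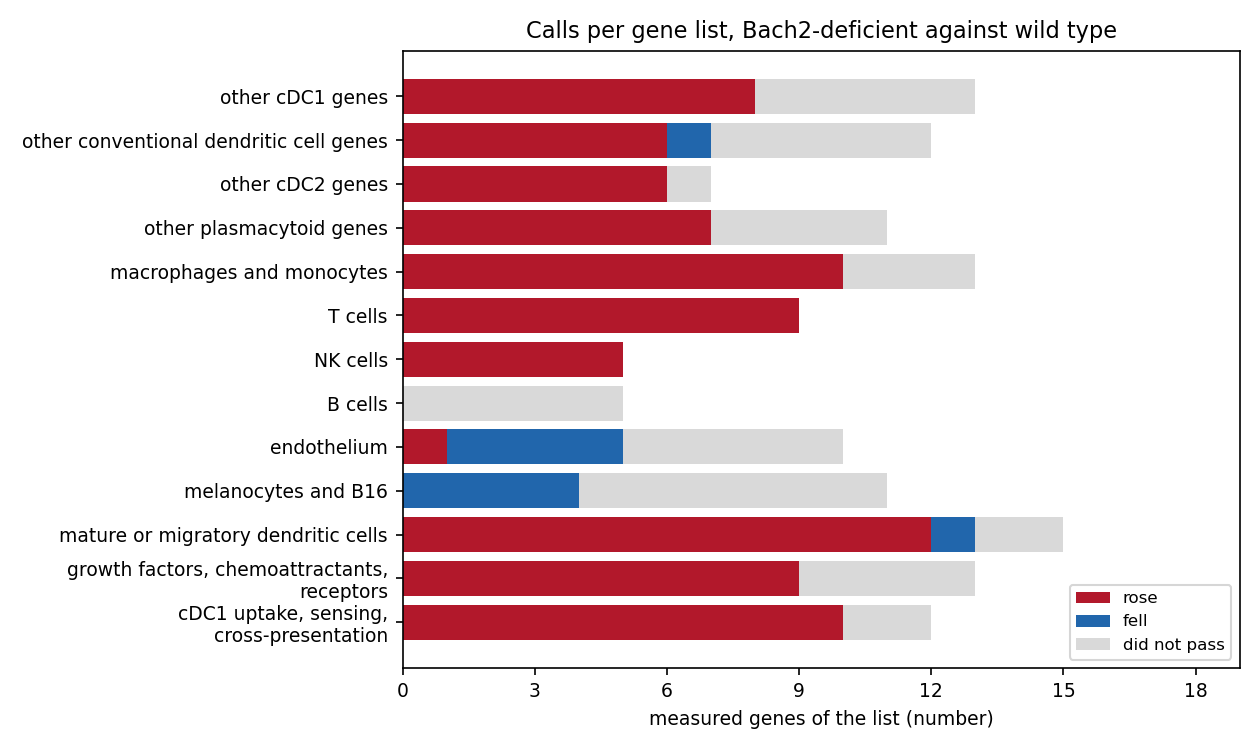
Number of measured genes (horizontal axis) that rose, fell or did not pass at a limma adjusted p under 0.05 in each gene list, Bach2-deficient against wild type. All 9 T cell and 5 NK cell genes rose and 0 of 5 B cell genes did, while the dendritic cell lists held both called genes and genes that did not pass.

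Markers of other leukocytes moved on the same arrays. Among 13 genes of macrophages and monocytes, 10 rose (median 1.13). Their mean was 10.7 to 11.4 in Bach2-deficient tumors and 9.20 to 10.4 in wild-type tumors. All 9 T cell genes rose (median 2.67, list mean 9.53 to 10.8 in Bach2-deficient and 6.30 to 7.91 in wild-type tumors), as did all 5 NK cell genes (median 3.67, list mean 9.02 to 10.6 against 5.53 to 7.09). Cd8a rose by 4.23 and the NK and CD8+ T cell receptor gene Klrk1 by 3.73. With the melanocyte mean in the model 0 macrophage, 1 T cell and 3 NK cell genes rose, and with Xist 5 macrophage, 7 T cell and 4 NK cell genes. Of 5 B cell genes, 0 rose and 0 fell (median -0.01, list mean 4.63 to 7.69 against 5.44 to 6.26). Of 11 melanocyte genes, 4 fell, among them Oca2 (-0.90), with a median of -0.33, where 12.4% of all genes fell.

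Endothelial genes had a median of -0.47 and a list mean of 4.63 to 5.07 in Bach2-deficient tumors and 5.07 to 5.30 in wild-type tumors. Of the 10, 7 were under 4.98 in Bach2-deficient tumors and 4 in wild-type tumors. Egfl7 fell by 1.18, while Pecam1, which leukocytes also transcribe, rose by 2.00. Egfl7, Pecam1 and Oca2 did not pass with the melanocyte mean in the model (-0.91, 1.00 and -0.60, limma adjusted p = 0.0989, 0.171 and 0.17). The part of these cells in the values of Batf3, Naaa, Itgax and Zbtb46, whose transcripts they share with dendritic cells, was not tested.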

How the data were processed

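RNA abundance was read on 10 Affymetrix 3′ expression arrays of dissociated B16 tumors, 5 Bach2-deficient and 5 wild type, grouped by sample title. The deposited values are on the log2 scale; per the submitters' processing notes the authors used RMA (background correction, quantile normalization, probe summary) and Partek, with versions not given in the sources used here. Medians lay between 5.80 and 5.88 on all arrays; precision is limited by how many arrays there are. Values were used as deposited. Because the labels name no animals, the p-values reflect sample-to-sample spread, which may be technical.

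Gene names came from the platform annotation, and all 15 probe sets matched the RefSeq table by gene ID and symbol. For each gene the brightest probe set, averaged over all arrays, was used. limma 3.58.1 in R 4.3.3 (lmFit, eBayes, 2-sided) was fitted over all 18193 genes and, separately, over all 34945 single-gene probe sets, with Benjamini-Hochberg adjustment over each table. A gene rose or fell at an adjusted p under 0.05. Differences between 2 genes used exact permutation tests over arrays, adjusted over 38 pairs; of 45 planned pairs, 7 needed Clec9a. Likeness, planned for Xcr1 and Clec9a, was computed for Xcr1 only.

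The genes, the 13 lists and the tests were chosen with earlier results of these data known. Named beside the 9 genes were Bach2, Ptprc, Csf1r, the ligands and lineage factors in any case, and from each list the called gene with the smallest adjusted p in each direction; other list genes are given as counts, with values added after they were seen. Over all genes, same-numbered samples correlated by 0.01 to 0.32 in their deviations from the group means. The numbers were therefore not taken to pair the samples. Averaged over the 9 genes, replicates 1 and 3 lay below the group mean in both groups, and replicates 2, 4 and 5 above it. The deviations of replicates 1 and 3 were -0.59 and -0.43 in Bach2-deficient and -0.27 and -0.23 in wild-type tumors. Whether the numbers pair the samples was not tested further. Alternatives were a replicate block, a filter on the dimmest 30% of genes, median centring, repeated quantile normalization, trended robust moderation, array weights, the melanocyte list mean or a term for Xist as covariate, mean probe sets, and leaving out each array.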

Additional observations from a re-analysis of the deposited data

Results flagged for a closer look

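In 6 of 76 groups of 5 values looked at, a single tumor stood far from the other 4; chance flags about 1 group in 20, and no explanation was tested. Bach2-deficient replicate 1 was low for Ptprc (11.7, others 12.3 to 12.5), for Csf1r (11.6, others 12.3 to 12.5) and for Itgam (6.34, others 7.59 to 7.79). It was high for the dimmest Zbtb46 probe set (3.15, others 2.99 to 3.02). Wild-type replicate 1 was low for Ptprc (9.65, others 10.6 to 11.0). Wild-type replicate 4 was high for the dimmest Naaa probe set (5.75, others 3.41 to 3.83).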

How the results depend on the processing

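The count of 7 genes that rose among the 9 measured was 6 to 8 in every alternative without a covariate. With the term for Xist the changes rest on Bach2-deficient replicate 2, the highest tumor of its group for 7 of the 9 genes. That fit is left out of this range. With the melanocyte list mean as covariate the count was 1, and 1 of the 15 probe sets was called (9 without the covariate). The cause was not tested; the covariate differs between the genotypes. Over all genes, 5226 were called, 394 with that covariate and 1417 with the term for Xist; most gene lists lost calls in the same fits. Leaving out 1 array gave 7 or 8 of the 9 genes, 9 or 10 probe sets, 3658 to 5925 of all genes and 13 to 21 of the 38 pairs. Falls over all genes numbered 2264, but 1388 without Bach2-deficient replicate 2 and 1447 without replicate 4.

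With the replicate block 8 of the 9 genes were called, Flt3 among them (0.63, limma adjusted p = 0.0495), and 4952 of all genes; 2 of 5 tumors matched best with their own number in the other group. Paired by number, 0 of 38 pairs of genes passed (15 unpaired), since the sign-flip test on 5 pairs cannot reach an adjusted p under 0.05. With the filter on dim genes Xcr1 was not tested. The change of Tcf4 was -0.0021 after repeated quantile normalization and ran from -0.0268 (without wild-type replicate 2) to 0.15 with 1 array left out. Dim wild-type levels limit the sizes given for Xcr1, Clnk, Itgam, Pacsin1, Il12b and Csf2.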
